A study of Mus musculus with 6 samples.

Results

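The small leucine-rich proteoglycans are secreted matrix proteins built around leucine-rich repeats, and 10 of their genes were followed in the neonatal mouse cornea: Kera, Lum, Prelp, Fmod, Omd, Dcn, Bgn, Aspn, Ogn and the structurally related Ecm2. They were found by symbol among the 19938 genes that the array annotation pairs with a probe set of their own, and each of the 10 had exactly 1 probe set. The tested corneas came from K14-DN-Clim transgenic mice, in which the keratin 14 promoter, active in basal epithelial cells, drives a dominant-negative form of the CLIM proteins. CLIM proteins are cofactors of LIM-domain transcription regulators. The 3 DN-Clim samples were set against 3 samples of wild-type (WT) littermates, all whole corneas at postnatal day 3, each hybridised to an Affymetrix Mouse Gene 1.0 ST array. The labels name no other allele or agent, and they do not say whether a sample was 1 animal or a pool, so a p-value here reflects the spread among the samples, part of which may be technical. The title of the study concerns Wnt signalling and the upkeep of epithelial stem cells, and the comparison made here is of matrix genes in transgenic and WT corneas.

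In the corneal stroma these proteins coat collagen fibrils, limit how thick the fibrils grow and keep them evenly spaced, which transparency depends on. Lumican (Lum) and keratocan (Kera) carry keratan sulfate chains there, as does the corneal form of osteoglycin (Ogn), also called mimecan. Decorin (Dcn) and biglycan (Bgn) carry chondroitin or dermatan sulfate chains. Their main source in the cornea is the keratocyte, the mesenchymal cell of the stroma, and not the epithelium in which the keratin 14 promoter is active.

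Most of the genes lie beside each other in the mouse genome. Dcn, Lum, Kera and the family member Epyc are consecutive protein-coding genes on chromosome 10, Optc, Prelp and Fmod are consecutive on chromosome 1, and Bgn lies on chromosome X. Ecm2, Aspn, Omd and Ogn follow each other on chromosome 13 within the bounds of Cenpp, a gene for a centromere protein. The sequences upstream of these 4 neighbours are given because neighbours within this cluster gave different values on the arrays, as described below. Each line holds the 250 bases before the annotated start, on the plus strand of GRCm38.p6 from RefSeq, at chr13:49504560-49504809 for Ecm2, chr13:49544193-49544442 for Aspn, chr13:49582212-49582461 for Omd and chr13:49607765-49608014 for Ogn. Capitals mark TATAAA and CANNTG on either strand.
Ecm2: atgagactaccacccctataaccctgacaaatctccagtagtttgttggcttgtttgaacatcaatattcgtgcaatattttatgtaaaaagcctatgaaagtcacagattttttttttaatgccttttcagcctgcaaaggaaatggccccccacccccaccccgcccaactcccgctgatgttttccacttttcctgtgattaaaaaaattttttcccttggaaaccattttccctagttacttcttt
Aspn: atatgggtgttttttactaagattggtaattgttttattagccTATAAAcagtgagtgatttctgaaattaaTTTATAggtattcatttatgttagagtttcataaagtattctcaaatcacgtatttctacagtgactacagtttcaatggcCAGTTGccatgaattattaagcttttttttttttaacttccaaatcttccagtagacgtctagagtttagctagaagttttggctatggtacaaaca
Omd: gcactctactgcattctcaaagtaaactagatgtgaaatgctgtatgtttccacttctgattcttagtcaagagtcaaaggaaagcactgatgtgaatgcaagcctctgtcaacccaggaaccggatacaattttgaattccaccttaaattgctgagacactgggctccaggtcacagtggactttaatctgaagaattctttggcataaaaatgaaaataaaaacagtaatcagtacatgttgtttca
Ogn: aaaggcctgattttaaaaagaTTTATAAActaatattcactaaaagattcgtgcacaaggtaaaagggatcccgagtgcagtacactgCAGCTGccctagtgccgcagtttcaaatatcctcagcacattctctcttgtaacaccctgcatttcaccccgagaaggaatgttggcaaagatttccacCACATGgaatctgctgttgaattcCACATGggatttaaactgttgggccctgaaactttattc
TATAAA, the core of a TATA box, was found at 2 positions in the Aspn window and at 2 overlapping positions in the Ogn window. It was absent from the Ecm2 and Omd windows, and 12.4% of the 32851 mouse windows of the same length held it. CANNTG, the E-box bound by helix-loop-helix factors, was found at 1 position before Aspn and at 3 before Ogn, and 66.2% of all windows held it. TAATTA, a homeodomain core, ATCAAAG, a TCF/LEF site, and CAGAC, a SMAD box, were in none of the 4 windows, against 4.84%, 3.21% and 42.2% of all windows. These matches describe letters only.

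Values are log2(intensity + 16), and differences are DN-Clim minus WT. On these arrays the samples did not separate by group alone. Across 23410 annotated probe sets, the correlation of DN-Clim replicate 3 was 0.949 to 0.962 with WT arrays, and 0.9 to 0.928 with its own group. That of DN-Clim replicate 1 was 0.944 to 0.965 with WT arrays, and 0.964 with DN-Clim replicate 2. DN-Clim replicates 1 and 2 had high lens marker signal. The summed intensity of 19 lens markers was 127146 and 125398 on them, 5206 on DN-Clim replicate 3 and 5958 to 9435 on the WT arrays, and no marker was at 0. The CLIM gene Ldb1 read 10.94, 10.89 and 10.22 in DN-Clim and 10.42, 10.37 and 10.46 in WT. Whether the Ldb1 probes meet the transgene is not given in the labels, so these values do not check them. Because the tissue was profiled whole, fewer cells of a type and less RNA per cell cannot be told apart in anything that follows.

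With all 6 arrays, each of the 10 proteoglycan genes averaged lower in DN-Clim than in WT, and 0 passed the adjusted threshold of 0.05 (limma, Benjamini-Hochberg over the 23410 probe sets). Of all probe sets 0.0128% were called lower and 0% higher. At an unadjusted p under 0.05, 8 of the 10 were lower and 0 higher, against 4.49% and 1.45% of all probe sets. The median difference of the 10 was -0.98, beside -0.04 over all probe sets, of which 57.2% were below 0. For Aspn, Ecm2, Fmod and Omd every DN-Clim array lay below every WT array, a pattern that 6.95% of probe sets showed in that direction and 3.2% in the other.

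**Figure D1:**
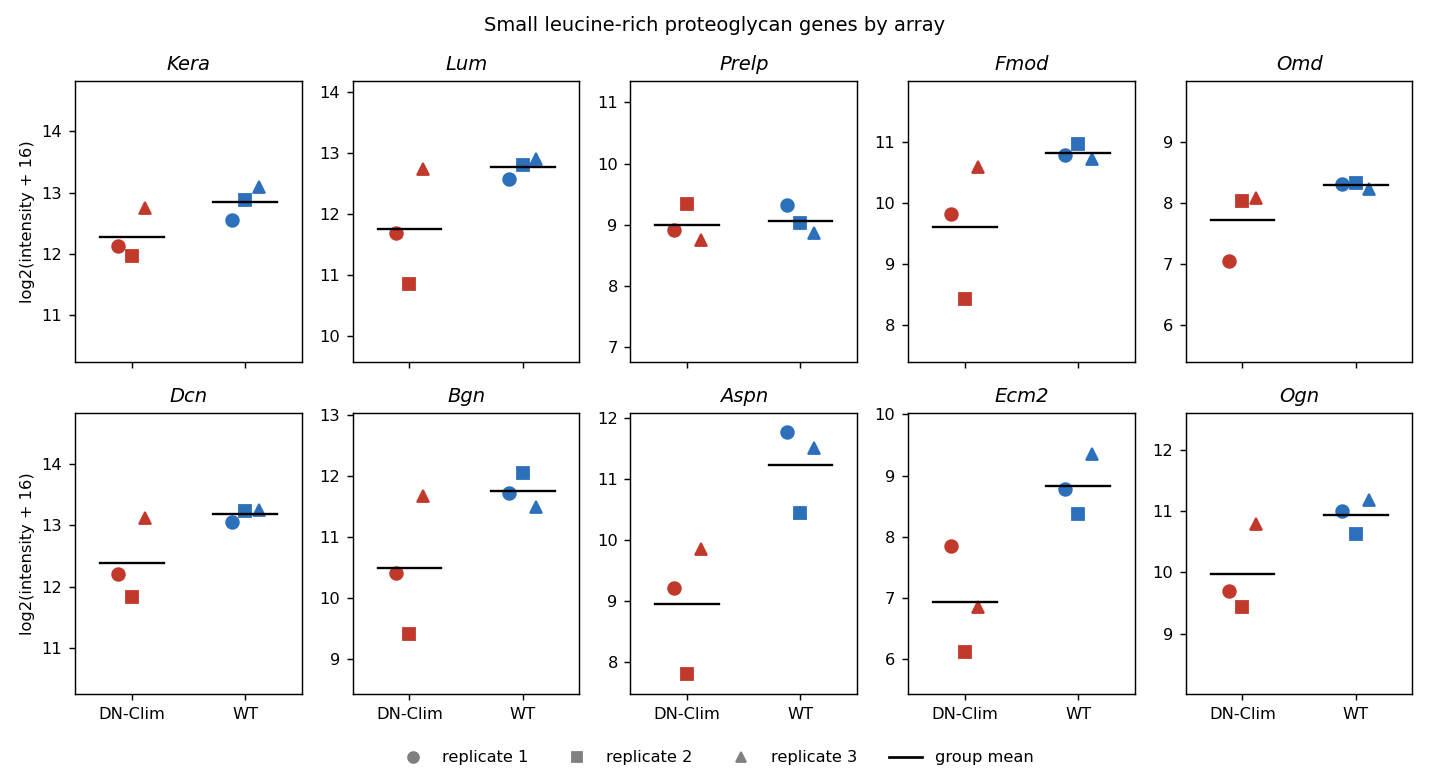
Level of each proteoglycan gene, as log2(intensity + 16), on the 3 DN-Clim (red, left) and 3 WT (blue, right) arrays, with symbols for replicates and lines for group means. The vertical span is the same in every panel. The DN-Clim triangle (replicate 3) lies among the WT points in the Kera, Lum, Dcn, Bgn and Ogn panels, just below them in those of Fmod, Omd and Prelp, and further below in those of Aspn and Ecm2.

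Lum, a keratan sulfate proteoglycan whose loss clouds the mouse cornea, read 11.69, 10.85 and 12.74 on DN-Clim replicates 1, 2 and 3, against 12.58, 12.80 and 12.90 in WT. The DN-Clim values spread widely, with replicate 3 inside the WT range and the other 2 below it. The difference was -0.999 (SE 0.401, 95% interval -1.90 to -0.10, limma adjusted p = 0.819). Kera, the proteoglycan most restricted to the cornea, read 12.12, 11.96 and 12.75 in DN-Clim, against 12.56, 12.88 and 13.09 in WT. It followed the same order of arrays over a narrower range, with a difference of -0.57 (95% interval -1.13 to -0.0048, adjusted p = 0.836).

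Fmod, which encodes fibromodulin, a proteoglycan of collagen fibrils in tendon and other connective tissue, read 9.82, 8.43 and 10.59 in DN-Clim, against 10.78, 10.96 and 10.72 in WT. The groups did not overlap, although DN-Clim replicate 3 was 0.23 under the WT mean where replicate 2 was 2.39 under it. Its difference was -1.21 (95% interval -2.22 to -0.19, adjusted p = 0.788). Omd, which encodes osteomodulin, a keratan sulfate proteoglycan known from bone, read 7.06, 8.03 and 8.09 in DN-Clim, against 8.32, 8.34 and 8.22 in WT. Here replicate 1 was the low array, and replicates 2 and 3 lay just under WT. The Omd difference was -0.57 (95% interval -1.19 to 0.05, adjusted p = 0.885).

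Prelp encodes a heparin- and collagen-binding member of the family. It read 8.91, 9.35 and 8.75 in DN-Clim, against 9.32, 9.02 and 8.86 in WT. Unlike the others it was highest in DN-Clim on replicate 2, and the groups overlapped along almost their whole ranges. The difference of -0.07 had a 95% interval from -0.56 to 0.43 (adjusted p = 0.999).

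Dcn, the class I proteoglycan that binds collagen and growth factors of the TGF-beta family, read 12.21, 11.83 and 13.12 in DN-Clim, against 13.05, 13.24 and 13.26 in WT. DN-Clim replicate 3 was again within the WT range, and the difference was -0.80 (95% interval -1.49 to -0.11, adjusted p = 0.796). Bgn, its closest relative, read 10.42, 9.42 and 11.67 in DN-Clim, against 11.73, 12.05 and 11.49 in WT. On Bgn too, DN-Clim replicates 2 and 1 were the lowest arrays and replicate 3 lay within the WT range, with a larger spread than for Dcn and a difference of -1.25 (95% interval -2.31 to -0.19, adjusted p = 0.788). Ogn read 9.70, 9.44 and 10.79 in DN-Clim, against 11.01, 10.63 and 11.19 in WT, with a difference of -0.97 (95% interval -1.72 to -0.21, adjusted p = 0.758).

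Aspn, which encodes asporin, a class I protein with a run of aspartates that typically lacks glycosaminoglycan chains and binds collagen, had the most negative mean difference of the 10. It read 9.21, 7.81 and 9.85 in DN-Clim, against 11.76, 10.44 and 11.51 in WT. All DN-Clim arrays were below all WT arrays, and the WT arrays themselves differed by more than for any other of the 10 genes (SD 0.70, n = 3). The group means were 8.96 ± 1.05 in DN-Clim and 11.24 ± 0.70 in WT (SD, n = 3 each), a difference of -2.28 (95% interval -3.42 to -1.14, adjusted p = 0.512), which is 4.85-fold lower on this scale. Ecm2, which encodes an adhesive matrix protein with leucine-rich repeats related to those of decorin, read 7.85, 6.11 and 6.85 in DN-Clim, against 8.79, 8.38 and 9.35 in WT. DN-Clim replicate 3 was the second lowest of the 6 arrays for this gene. The means were 6.94 ± 0.87 in DN-Clim and 8.84 ± 0.49 in WT (SD, n = 3 each), a difference of -1.90 (95% interval -2.83 to -0.97, adjusted p = 0.506), which is 3.73-fold lower. Replicates 2 and 3 of DN-Clim read Ecm2 below 7.50, the lower quartile of probe set means, where the added 16 understates a fold change.

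**Figure D2:**
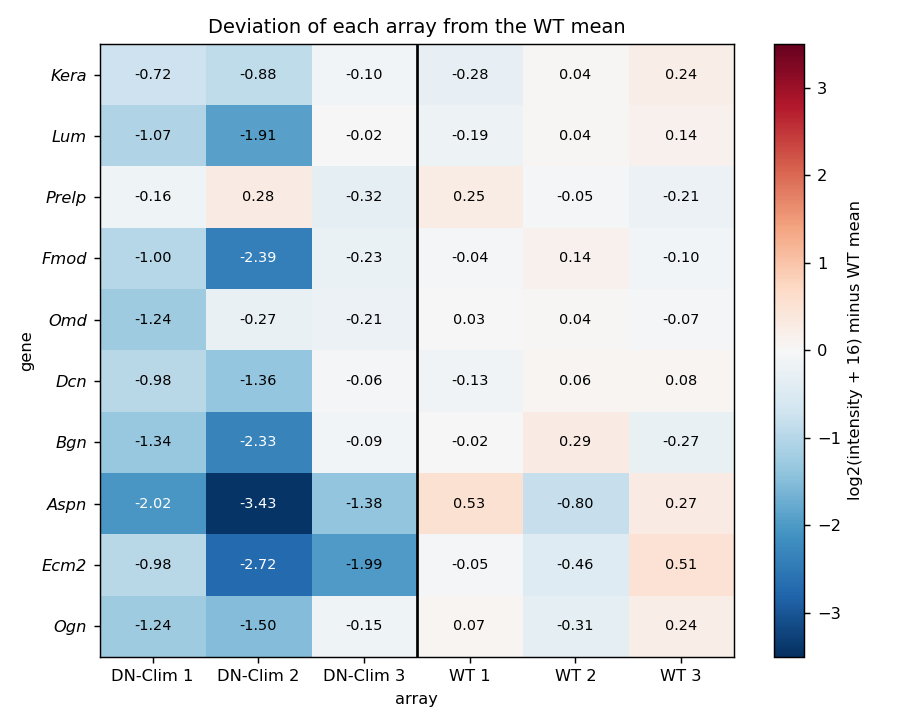
Each cell is an array's log2(intensity + 16) minus the mean of the 3 WT arrays for that gene, with blue for lower and red for higher. The columns for DN-Clim replicates 1 and 2 are blue for 9 genes with Prelp near 0, and in the column for replicate 3 the deep blue cells are Aspn at -1.38 and Ecm2 at -1.99.

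Set out by array, the 10 genes had a median deviation from the WT mean of -1.03 on DN-Clim replicate 1, -1.71 on replicate 2 and -0.18 on replicate 3. The medians of all probe sets on these arrays were -0.07, -0.16 and 0.06. On replicates 1 and 2, 9 of the 10 genes lay below all WT arrays, as did 38.8% and 50% of all probe sets. On replicate 3 this held for 5 of the 10 and for 28.2% of all probe sets. Of these 5, Fmod, Omd and Prelp were 0.21 to 0.32 below the WT mean, and Aspn and Ecm2 were 1.38 and 1.99 below it. Lum, Dcn, Bgn, Kera and Ogn were 0.02 to 0.15 below it.

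Relative to the median of the other 9 genes on the same array, Aspn deviated by -1.02, -1.92 and -1.24 on DN-Clim replicates 1, 2 and 3, against 0.56, -0.84 and 0.20 in WT. It was thus below the median of the other 9 on every DN-Clim array, by more than on any WT array. Ecm2 deviated in the same measure by 0.08, -1.22 and -1.84 in DN-Clim and by -0.03, -0.50 and 0.43 in WT. On DN-Clim replicate 1 it thus moved with the others, and on replicate 3 it lay below Aspn. Ogn and Omd, the other genes of the chromosome 13 cluster, were at 0.06 and -0.06 on DN-Clim replicate 3. Cenpp, within whose bounds the cluster lies, read 8.15, 8.49 and 6.84 in DN-Clim and 7.79, 7.41 and 7.93 in WT (difference 0.12, adjusted p = 0.999). Like Ecm2, Cenpp was low on DN-Clim replicate 3, but on the other DN-Clim arrays it was above WT. Whether probes of these overlapping genes share signal was not tested.

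Without DN-Clim replicate 3, which leaves 2 DN-Clim arrays, 5 of the 10 genes fell and 0 rose past the adjusted threshold, against 1.52% of all probe sets called lower and 0.547% called higher in that fit. The genes were Ogn (-1.37, SE 0.203, limma adjusted p = 0.0185), Dcn (-1.17, SE 0.178, adjusted p = 0.0203), Bgn (-1.84, SE 0.298, adjusted p = 0.0255), Lum (-1.49, SE 0.253, adjusted p = 0.0293) and Aspn (-2.73, SE 0.474, adjusted p = 0.0314). Fmod at -1.70 (adjusted p = 0.0568), Kera at -0.80 (adjusted p = 0.0818), Ecm2 at -1.85 (adjusted p = 0.0953), Omd at -0.75 (adjusted p = 0.179) and Prelp at 0.06 (adjusted p = 0.872) did not pass. Leaving out this array was chosen with its values known, which these p-values ignore, and the 2 arrays kept are those with the lens signal.

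With DN-Clim replicate 3 alone against WT, where its spread is assumed to be that of WT, none of the 10 passed, and of all probe sets 0.312% were called lower and 0.0256% higher. At an unadjusted p under 0.05 there were Ecm2 (-1.99, 95% interval -2.77 to -1.21, limma adjusted p = 0.0739) and Aspn (-1.38, 95% interval -2.43 to -0.33, adjusted p = 0.181). For Lum the difference was -0.02 with a 95% interval from -0.49 to 0.45, and for Dcn it was -0.06 from -0.50 to 0.38. On the other 2 DN-Clim arrays, set against the same WT arrays, Lum and Dcn differed by -1.49 and -1.17. Single arrays also set the size of other differences. Without DN-Clim replicate 2 the difference was -0.54 for Lum, -0.62 for Fmod, -0.71 for Bgn and -0.52 for Dcn, and without DN-Clim replicate 1 it was -0.24 for Omd. The Ecm2 difference was -1.49 without DN-Clim replicate 2 and -2.36 without DN-Clim replicate 1, and it passed in neither fit (adjusted p = 0.708 and 0.367).

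**Figure D3:**
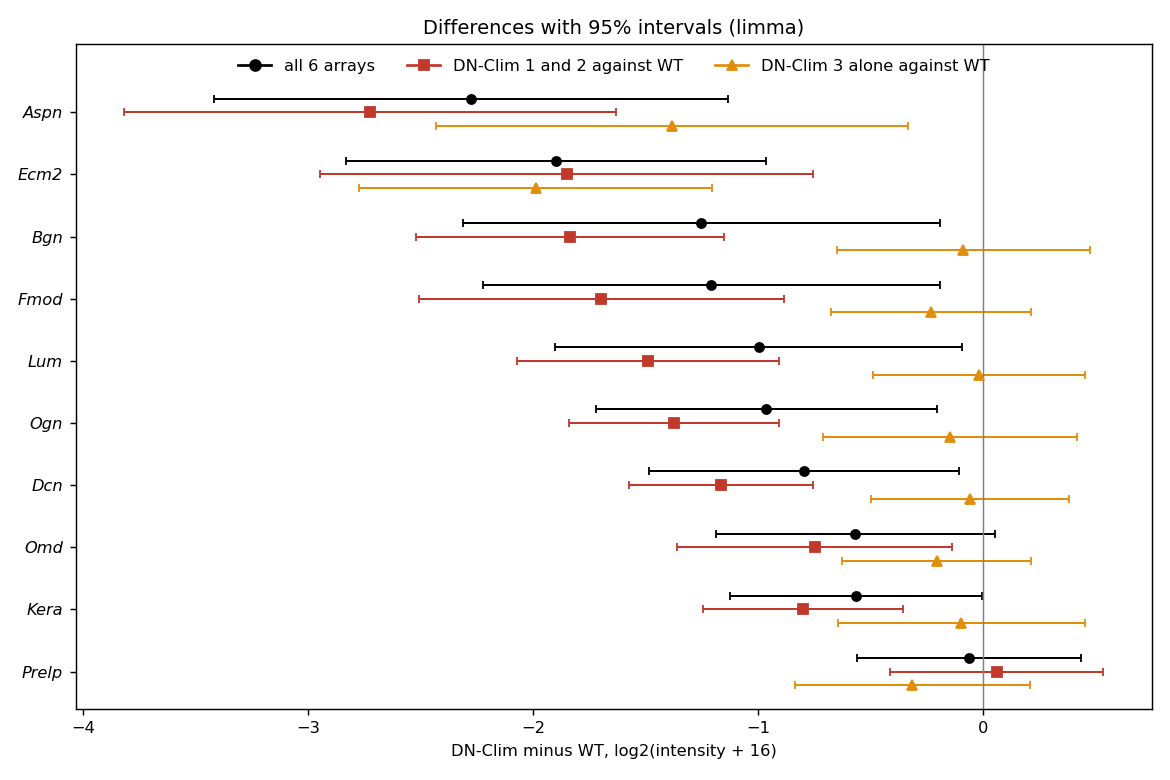
DN-Clim minus WT for each gene on the log2(intensity + 16) scale with limma 95% intervals, for all 6 arrays (black), DN-Clim replicates 1 and 2 against WT (red) and DN-Clim replicate 3 alone against WT (orange). The orange intervals of 8 genes cross 0, and those of Aspn and Ecm2 lie below it.

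Lum, Dcn, Kera, Bgn, Fmod, Ogn and Aspn varied together over the 6 arrays. The Pearson correlation of Lum with Dcn was 0.99, that of Bgn with Fmod 0.98 and that of Kera with Dcn 0.96. Aspn correlated at 0.92 with Ogn, at 0.86 with Lum and Dcn and at 0.9 with Ecm2, and Ecm2 at 0.68 with Dcn. The median correlation with the other 9 genes was 0.86 for both Aspn and Kera. Omd had a median correlation of 0.49 with the other 9 genes and Prelp of -0.4. These correlations are over 6 arrays of the same libraries, which share the lens signal and the group difference, and they are given as a description.

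Among 1106 probe sets of other genes that were above median brightness and varied by an SD of at least 0.5, the genes most like the mean profile of the 10 were Tnmd (r = 0.993), Scn7a and Egfl6 (each r = 0.992), Hmcn1 and Tmem45a (each r = 0.985), Kazald1 and Ppic (each r = 0.983) and Acer2 (r = 0.982), over 6 arrays. Tnmd encodes tenomodulin, a membrane glycoprotein of tendon and ligament, Hmcn1 a giant matrix protein and Ppic a cyclophilin. Tnmd read 8.30, 7.02 and 9.21 in DN-Clim, against 10.53, 10.18 and 10.89 in WT (difference -2.36, adjusted p = 0.411). The genes most like Aspn were Cav1 (r = 0.984), Upp1 (0.983), Postn (0.981) and Crip1 (0.981). Postn encodes periostin, a matrix protein of collagen-rich tissue, and it read 10.56, 9.25 and 11.43 in DN-Clim, against 12.27, 11.51 and 12.28 in WT. Those most like Lum were Fgf18 (0.998), Apod (0.996), Mgp (0.995) and Slc38a4 (0.992), and those most like Kera were Gng11 (0.968), Otor (0.962), Lrrc7 (0.955) and Tent5a (0.949).

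The other family members on the array were less uniform. None of 7 passed with all 6 arrays or without DN-Clim replicate 3, and their median difference was -0.27. Epyc, which encodes epiphycan, a class III protein of cartilage, read 6.57, 6.80 and 6.99 in DN-Clim, against 7.44, 7.08 and 8.34 in WT, with no overlap (difference -0.84, adjusted p = 0.788). Chad, which encodes chondroadherin of cartilage, also did not overlap (-0.31, adjusted p = 0.993), with DN-Clim replicate 3 at 7.53 just under WT replicate 2 at 7.55. These were 2 of the 7, against 6.95% of all probe sets in that direction. Optc, which encodes opticin, a protein secreted into the vitreous by the ciliary body, was high on 1 DN-Clim array, at 8.14, 9.60 and 7.73 in DN-Clim, against 7.90, 8.06 and 7.71 in WT. Nyx, Podn, Podnl1 and Chadl differed by -0.31 to 0.16.

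The collagens that these proteoglycans bind or lie beside moved over the arrays much as they did. Of 15 fibril-forming and associated collagens 14 were below 0, with a median of -0.92, and none passed with all arrays. DN-Clim replicates 1, 2 and 3 had collagen medians of -0.93, -1.71 and 0.02. The median of the 10 proteoglycan genes minus that of the collagens was -0.10, -0.00045 and -0.20. On WT replicates 1, 2 and 3 the same difference was -0.07, -0.21 and 0.40, so the list medians did not separate by more than they did among WT arrays. This does not cover single genes, such as Aspn and Ecm2 at -1.38 and -1.99 on DN-Clim replicate 3. Without DN-Clim replicate 3, 6 of the 15 fell and 0 rose, against 1.52% and 0.547% of all probe sets. Of the 15, only Col3a1, the chain of type III collagen, had groups that did not overlap, against 6.95% of all probe sets in that direction. Col3a1 read 9.79, 9.20 and 10.80 in DN-Clim, against 11.73, 11.47 and 11.04 in WT (difference -1.48, adjusted p = 0.612).

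The enzymes that build the chains differed less. Of 12 keratan sulfate genes 10 were below 0, with a median of -0.26, and of 21 chondroitin and dermatan sulfate genes 19 were below 0, with a median of -0.21. None of either list passed with all arrays, and without DN-Clim replicate 3, 2 of each fell and 0 rose, against 1.52% and 0.547% of all probe sets. B3gnt2, a glycosyltransferase that extends keratan sulfate, read 8.98, 8.76 and 9.17 in DN-Clim, against 9.73, 9.84 and 9.61 in WT (difference -0.76, adjusted p = 0.612). It was low on all 3 DN-Clim arrays, as were Chst2 (-0.54), a sulfotransferase, and Dsel (-0.40), an epimerase of the dermatan sulfate pathway. Of the 21 chondroitin and dermatan sulfate genes 3 did not overlap, all lower. Of the 12 keratan sulfate genes 4 did not overlap with DN-Clim lower and 1 with DN-Clim higher, against 6.95% and 3.2% of all probe sets. The higher gene was St3gal3, a sialyltransferase (0.29, adjusted p = 0.949). For Chst5, the sulfotransferase of corneal keratan sulfate in mice, DN-Clim replicate 3 at 10.80 lay within WT (10.43, 10.94 and 10.17), and replicates 1 and 2 read 8.58 and 8.76.

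Of 11 proteases that cut the cores 10 were below 0 (median -0.29), and of 18 growth factors and receptors that the cores bind 13 were (median -0.23), with 0 called in either list with all arrays. Without DN-Clim replicate 3, 1 of the 11 proteases fell, Mmp2, a gelatinase (-1.64, limma adjusted p = 0.0158), and none of the 18 was called, against 1.52% of all probe sets called lower. Tgfb3, a TGF-beta ligand, read 8.62, 7.80 and 8.08 in DN-Clim, against 9.51, 8.74 and 8.97 in WT (-0.91, adjusted p = 0.69). Tlr4, the innate receptor that biglycan can engage, read 7.42, 6.96 and 6.89 in DN-Clim, against 7.81, 7.79 and 7.73 in WT (-0.68, adjusted p = 0.65). Tgfbr2 (-0.66) and Itga2 (-0.38) likewise did not overlap. Of the 18 genes 4 did not overlap with DN-Clim lower and 0 with DN-Clim higher, against 6.95% and 3.2% of all probe sets. Tgfb3, Tlr4 and Itga2 were each low on DN-Clim replicate 3 too, where 28.2% of all probe sets lay below all WT arrays.

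Markers of other cells moved with these results. Of 19 lens markers 18 were above 0, with list medians of 2.24, 2.83 and -0.09 on DN-Clim replicates 1, 2 and 3, and of 11 retina markers 11 were, with 1.47, 2.14 and -0.17. The summed retina signal was 24393, 38991 and 7543 in DN-Clim and 5281 to 17285 in WT. These are the arrays on which Lum, Dcn, Bgn, Fmod and Ogn were low, and the part of lens and retina tissue in those values was not tested. On DN-Clim replicate 3, where Aspn and Ecm2 were low and the other members close to WT, the pigment cell list stood apart. Its 8 markers had medians of 0.62, 0.47 and -1.18 on DN-Clim replicates 1, 2 and 3, with sums of 10606, 9564 and 2577 in DN-Clim and 5327 to 8374 in WT. Dct, an enzyme of melanin synthesis, read 11.21, 11.06 and 8.35 in DN-Clim, against 10.45, 10.63 and 10.99 in WT. Not all of the list was low there, since Mitf (7.89), Slc45a2 (8.04) and Rpe65 (6.32) on DN-Clim replicate 3 lay within the WT range. The part of pigment cells in the Aspn and Ecm2 values was not tested. The 19 keratocyte and mesenchyme markers other than the proteoglycans had medians of -0.70, -1.27 and -0.01, and they include collagens and Chst5 of the lists above, so these are partly the same data. Without DN-Clim replicate 3, 5 of the 19 fell and 2 rose, against 1.52% and 0.547% of all probe sets. Among those that fell were Pdgfra (-2.17, limma adjusted p = 0.00446) and Aldh3a1 (-1.62, adjusted p = 0.00446). Aldh1a1, a corneal crystallin enzyme, rose by 1.44 (adjusted p = 0.0226). Ptgds, a prostaglandin D synthase, rose by 1.01 (adjusted p = 0.0464). With all arrays Aldh1a1 (1.15) and Ptgds (0.73) did not overlap with DN-Clim higher, against 3.2% of all probe sets. Cd34 (-1.65) and Vim (-0.41) did not overlap with DN-Clim lower, against 6.95%. Of the 15 corneal epithelium markers 3 did not overlap, all lower, against 6.95% of all probe sets in that direction.

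The medians and sums of the vessel and macrophage lists were below WT on all 3 DN-Clim arrays, as Aspn and Ecm2 were, but only 5 of 10 markers in each list did not overlap, all lower, against 6.95% of all probe sets. With all arrays 1 of the 10 vascular markers was called lower, Emcn (-2.44, limma adjusted p = 0.0113), against 0.0128% of all probe sets. Kdr, a vascular growth factor receptor, averaged higher (0.39, adjusted p = 0.999). The 10 vascular markers had medians of -0.76, -1.31 and -0.46, with summed intensities of 2830 to 3757 in DN-Clim and 5263 to 5337 in WT, and the 10 macrophage markers had medians of -0.45, -0.44 and -0.49, with sums of 1862 to 2156 in DN-Clim and 2632 to 3332 in WT. None was at 0, and the part of these cells in the Aspn and Ecm2 values was not tested. The 12 tendon, sclera and cartilage markers had medians of -0.14, -0.49 and 0.09 and sums of 3660 to 8102 in DN-Clim and 8197 to 9585 in WT. Skeletal muscle markers were summed to 6378, 3269 and 10408 in DN-Clim and to 2408 to 4168 in WT.

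**Figure D4:**
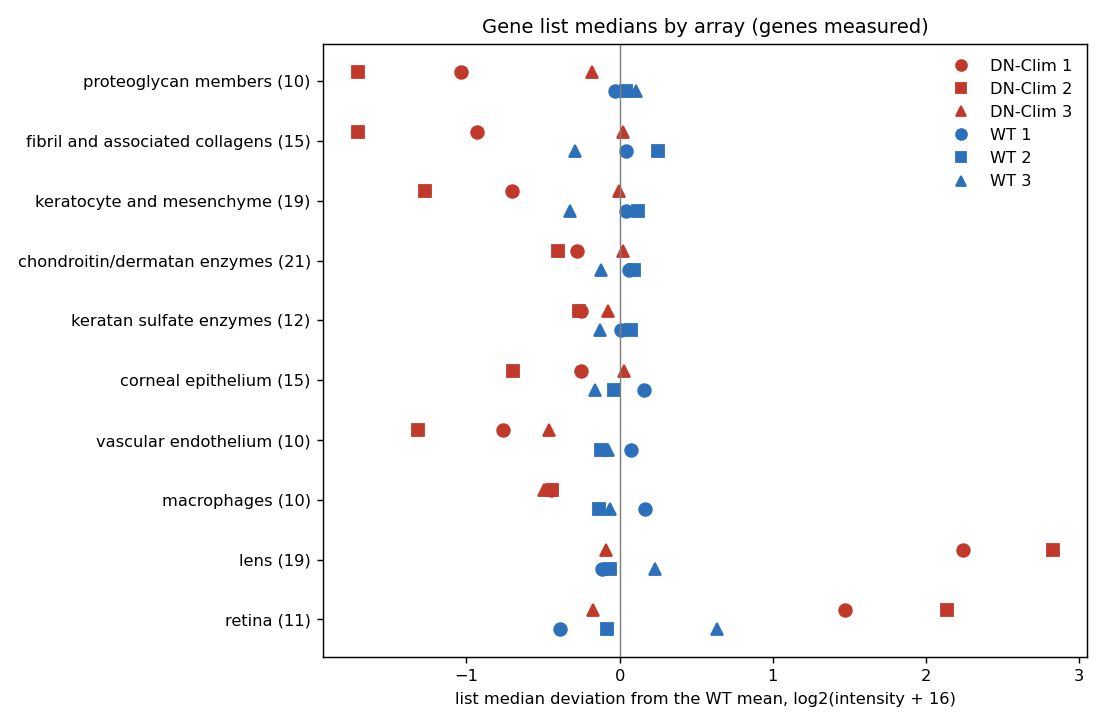
Median deviation of each gene list from the WT mean, as log2(intensity + 16), by array, with DN-Clim in red above and WT in blue below on each row, and the number of genes measured in brackets. On DN-Clim replicates 1 and 2 the proteoglycan genes, collagens and keratocyte markers are low and the lens and retina lists are high. On WT replicate 3 the retina list is at 0.63, with the proteoglycan genes at 0.11, the collagens at -0.29 and the keratocyte markers at -0.32. The medians of the vascular and macrophage lists are below 0 on all 3 DN-Clim arrays.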

How the data were processed

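The authors deposited linear probe set intensities, 1 column per array. The submitters' processing notes name Affymetrix Expression Console 1.1 and PLIER. How background was corrected and arrays normalized is not given in the sources used here. Per the labels' protocols, non-corneal tissue was dissected away and cDNA was amplified and biotin-labelled with NuGEN kits. Of 35557 probe sets, 23410 were annotated, 21789 with 1 symbol, 1621 with several (not named) and 12147 unnamed here. Intensities were taken as log2(intensity + 16). Array medians of intensity ran from 230.8 to 280.9, and the number of arrays limits the precision. All adjusted p-values are from limma 3.58.1 in R 4.3.3 (lmFit, eBayes, Benjamini-Hochberg over the annotated probe sets, threshold 0.05). In simulated arrays with independent noise over 23410 probe sets, the fit recovered 64.2% of 2-fold, 88.1% of 4-fold and 100% of 8-fold changes. There were 10 false calls. The spread of both groups was drawn from the WT arrays. Every member spread more in DN-Clim than in WT, as for Lum (SD 0.948 against 0.168). The recovered shares therefore do not carry over to the comparison made here.

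The members and the 16 gene lists were chosen with earlier results of these data known. The main probe set of a gene was the brightest. Up to 4 genes of a list were named from those with no overlap, besides the 10 members and the genes most alike. Not every gene with a large difference and no overlap was named. Optc, Nyx, Podn, Podnl1, Chadl, Chst5, Mmp2, Pdgfra, Aldh3a1, Kdr, Dct, Mitf, Slc45a2, Rpe65, Cenpp and Ldb1 were named after their values were seen. Upstream sequences and gene order come from RefSeq (GRCm38.p6). The sequence table held 8 of the 10 members. The 5 motifs were chosen after the windows were seen. Counts are over the list genes matched to an array symbol, 1 of them through a synonym, and the other list genes are not reported here. Alternatives were other offsets, scalings, filters, priors, weights, a replicate block and leaving out arrays.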

Additional observations from a re-analysis of the deposited data

How the results depend on the processing

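Of 18 alternatives, all gave every member other than Prelp a difference below 0. Of 178 comparisons of a member with an alternative, 161 kept sign and call, 15 gained the call and 2 changed sign. The 2 were Prelp, at 0.0601 without DN-Clim replicate 3 and 0.0618 without WT replicate 1. Its values ran from -0.237 to 0.0618 when arrays were left out. The count of members called lower was 0 to 5 when arrays were left out, and 5 only without DN-Clim replicate 3. It was 9 with array weights, where Prelp was the exception. That fit gave DN-Clim replicate 1 a weight of 34.9 and the others 0.121 to 1.95, and its weights stopped short of convergence, so its 9004 called probe sets are not relied on. No member was called higher under any of the 18 alternatives.

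All probe sets called numbered 3 with all arrays, 0 to 483 when arrays were left out, 1 with quantile normalization, 0 with all 35557 probe sets, 5 with a trended robust prior and 79 with DN-Clim replicate 3 alone. The median difference of the members was -1.43 to -0.66 when arrays were left out, and -0.18 with DN-Clim replicate 3 alone. Same-numbered arrays did not deviate together (correlations 0.0172, -0.206 and -0.436). With 3 arrays per group, and high lens signal on DN-Clim replicates 1 and 2 only, these correlations cannot show whether the samples were paired. With the replicate block 9 probe sets were called, among them 1 member, Aspn (-2.28, limma adjusted p = 0.0277). Omd and Ecm2 were not tested under the filter at the median brightness. The mean over a member's probe sets equals the value reported, since each has 1, so the comparisons under that alternative could only count as kept. Signal over background is not known for a probe set here, because no detection call was used. Dim values, such as those of Ecm2, are the least precise.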
